A study of Brassica rapa with 8 samples.

Results

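*UGT74E2* (BraA08g034260.3C), *UGT74D1* (BraA04g022840.3C) and *DAO1* (BraA08g030300.3C) of *Brassica rapa* are taken here as the genes of auxin glucosylation and oxidation. They were chosen by the names and functions given to them in the study, which displays *UGT74E2* because it responded in these same libraries. The tables list 46250 genes in all, of which these are 3. The names rest on similarity to genes of *Arabidopsis thaliana*. The deposited tables hold identifiers only, so the names could not be checked against sequence, and the genes have no positions here.

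The libraries were made from RNA of whole seedlings of Chinese cabbage, cultivar Cantonner Witkrop. The seedlings were 1 day old when they were moved to agar with 10 µM of IAA-Ala, IPA-Ala or IBA-Ala, or to hormone-free agar for the control. In these compounds alanine is bound to an auxin, namely to indole acetic acid (IAA), to indole propionic acid (IPA) or to indole butyric acid (IBA), whose side chains grow longer in this order. Each of the 4 groups had 2 biological replicates. All groups were of the same cultivar, and the doses and times of the 3 conjugates were equal. The protocol gives a treatment of 24 h and the library titles 3 h, and the time of the protocol is used.

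Plants lower the level of free auxin by several routes. UDP-glucosyltransferases (UGTs) join glucose to the carboxyl group of an auxin, and the glucose ester that results can be hydrolysed again. In *A. thaliana*, UGT74E2 prefers IBA as a substrate, whereas UGT74D1 accepts IAA and IBA as well as the oxidation product of IAA. DAO1 is a dioxygenase that in *A. thaliana* oxidises IAA to 2-oxoindole-3-acetic acid (oxIAA). This product has little auxin activity and is not turned back into IAA. The study describes that DAO1 also oxidises conjugates of IAA with amino acids, which GH3 enzymes form. From the oxidised conjugates oxIAA can then be released. Transcripts of these genes were measured here, and not the enzymes or the auxin metabolites. In RNA of whole seedlings, fewer cells of a type and less RNA per cell cannot be told apart.

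The libraries had between 16616214 and 19521990 counts on genes, and all 3 genes were detected in all 8 libraries and passed the filter on low counts in every comparison. The values below are CPM, the counts of a gene relative to the depth of its library, scaled by the trimmed mean of M values (TMM, factors between 0.946 and 1.05). Intervals in brackets beside a CPM value are exact 95% Poisson intervals, which cover counting error only. Reads that aligned to more than 1 place were not counted, and genes with a near-identical copy may therefore be understated. A gene was called a DEG (differentially expressed gene) at an adjusted p below 0.01. All p-values are from edgeR's quasi-likelihood test unless DESeq2 is named, and adjusted p-values were corrected by the Benjamini-Hochberg method over all genes tested. Shares of all genes are shares of the genes tested. With DESeq2 they are shares of the genes that it gave an adjusted p, which were fewer than edgeR tested. The 3 comparisons with the control used the same 2 control libraries.

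*UGT74E2* was lowest in the control and highest after IBA-Ala. The control replicates had 110 and 122 counts of *UGT74E2*, equal to 5.99 (4.93 to 7.23) and 7.64 (6.34 to 9.12) CPM. The IAA-Ala replicates had 304 and 200 counts, equal to 16.5 (14.7 to 18.4) and 10.7 (9.30 to 12.3) CPM. The IPA-Ala replicates had 193 and 309 counts, equal to 11.2 (9.70 to 12.9) and 17.3 (15.5 to 19.4) CPM. These groups covered nearly the same range, and both lay above the control. The IBA-Ala replicates had 765 and 514 counts of *UGT74E2*, equal to 39.4 (36.7 to 42.3) and 27.2 (24.9 to 29.7) CPM. Both IBA-Ala libraries were above the other 6, and all 6 treated libraries were above both controls.

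The group means of *UGT74E2* were 6.82 ± 1.16 CPM in the control, 13.6 ± 4.04 with IAA-Ala, 14.3 ± 4.32 with IPA-Ala and 33.3 ± 8.61 with IBA-Ala (SD, n = 2). In this order, the neighbours IAA-Ala and IPA-Ala did not differ beyond their spread. Such a separation of the libraries is not rare in these data. Of 27948 genes tested over all libraries, in 7.7% every treated library exceeded both controls, and 6.47% had both IBA-Ala libraries above the other 6.

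**Figure D1:**
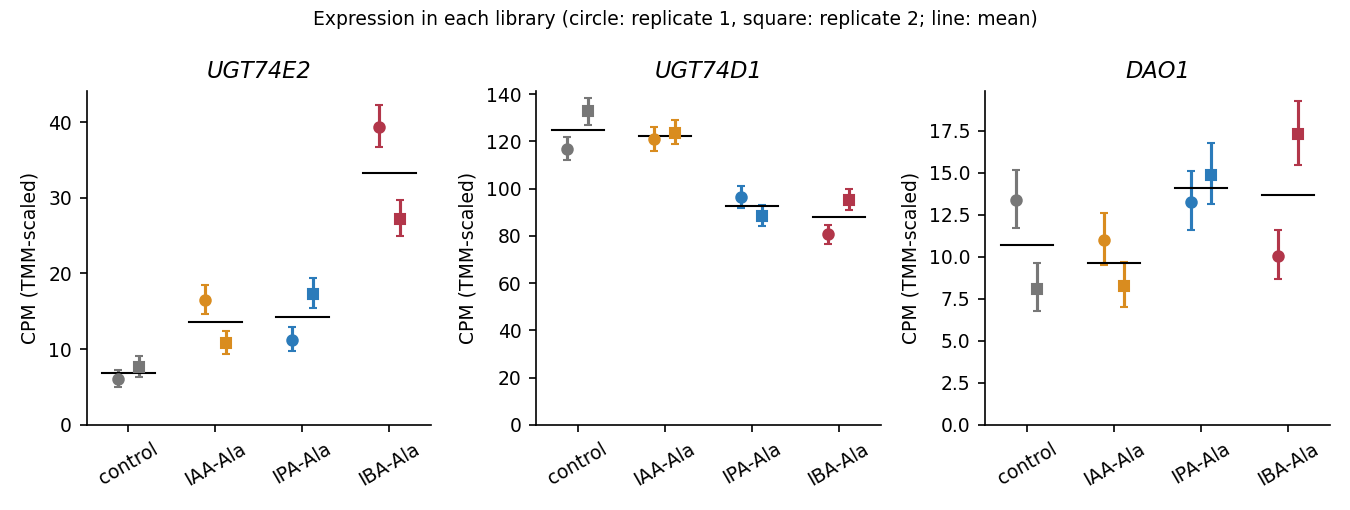
Expression of *UGT74E2*, *UGT74D1* and *DAO1* in each library in TMM-scaled CPM (vertical axes from 0, with a different range in each panel), by treatment. Circles are replicate 1, squares replicate 2, black lines the means of 2 replicates and bars the 95% Poisson intervals of single libraries. *UGT74E2* reached 39.4 and 27.2 CPM after IBA-Ala, *UGT74D1* was below 97 CPM in the 4 libraries of IPA-Ala and IBA-Ala, and the groups of *DAO1* overlapped other than IPA-Ala (13.3 and 14.9) and IAA-Ala (11.0 and 8.27).

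Compared with the control, *UGT74E2* after IBA-Ala was higher by 2.29 on the log2 scale (SE 0.31, 95% interval 1.59 to 2.99), a 4.89-fold difference (3.01 to 7.96). It ranked 99 by p among 27011 genes, and 1.83% of the genes tested had a larger absolute difference. The adjusted p was 0.0150, above the threshold of 0.01. Only 0.0037% of genes, 1 of 27011, passed this threshold after IBA-Ala, and 1.64% passed at an adjusted p below 0.05, *UGT74E2* among them. An unadjusted p below 0.05 was reached by 14.9% of genes. Given how *UGT74E2* came to be chosen, this difference is not independent evidence.

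The call of *UGT74E2* after IBA-Ala was not the same in every fit. With DESeq2, which called 3.1% of genes, the log2 fold change was 2.29 and the adjusted p 5.0e-08. With the spread estimated over all 8 libraries, the adjusted p was 0.00719. Without the second IBA-Ala replicate, which had the lower level, the log2 fold change was 2.53 and the adjusted p 0.000405. Leaving out any one of the other 3 libraries gave log2 fold changes between 2.0 and 2.47 and adjusted p-values between 0.0198 and 0.0483. The direction was the same in all of these fits, which follows from both IBA-Ala libraries lying above both controls.

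The differences of *UGT74E2* after the other conjugates were smaller and did not pass the test. After IAA-Ala the level was 1.98-fold that of the control (log2 fold change 0.98, SE 0.34, 95% interval 0.23 to 1.74, adjusted p = 0.251). After IPA-Ala it was 2.09-fold that of the control (log2 fold change 1.06, SE 0.33, 95% interval 0.32 to 1.80, adjusted p = 0.275). Both intervals exclude 0, but without adjustment 13.6% of genes had a p below 0.05 in the first comparison and 8.6% in the second. For the mean of the 3 treatments, fitted over all 8 libraries, the log2 fold change of *UGT74E2* was 1.45 (SE 0.29, 95% interval 0.82 to 2.09, adjusted p = 0.0276). In this contrast 0.476% of genes were called, 2.04% had an adjusted p below 0.05, and 15.3% an unadjusted p below 0.05. DESeq2, which called 2.93% of genes, gave the same contrast an adjusted p of 4.4e-05.

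The conjugates were compared with each other at the same dose and time in 3 pairs. *UGT74E2* was 2.46-fold higher after IBA-Ala than after IAA-Ala (log2 fold change 1.30, SE 0.27, 95% interval 0.66 to 1.94, adjusted p = 0.0403). It was 2.32-fold higher after IBA-Ala than after IPA-Ala (log2 fold change 1.22, SE 0.28, 95% interval 0.58 to 1.86, adjusted p = 0.451). Between IPA-Ala and IAA-Ala the log2 difference was 0.07, with a 95% interval from -0.60 to 0.74 (adjusted p = 0.918). The interval leaves room for a difference in either direction.

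In the edgeR fits of 4 libraries without a block, none of the 3 genes was called between any pair of conjugates, and 0% of all genes were called in each of the 3 pairs. The adjusted p of *UGT74E2* for IBA-Ala against IPA-Ala was 0.451 although its p ranked 141 among 26940 genes, since 7.97% of genes had a p below 0.05 in this pair. Between IBA-Ala and IAA-Ala, 27.2% of genes had a p below 0.05 and 6.86% an adjusted p below 0.05. DESeq2 called *UGT74E2* between IBA-Ala and IAA-Ala (adjusted p = 0.00086), where it called 8.72% of the 20472 genes with an adjusted p. It called none of the 3 genes in IPA-Ala against IAA-Ala (4.6% of 19042 genes) or in IBA-Ala against IPA-Ala (0.359% of 25352 genes). In the latter pair its adjusted p for *UGT74E2* was 0.0211. Without adjustment, edgeR gave a p below 0.05 to 1 of the 3 genes in IPA-Ala against IAA-Ala (22.7% of all genes), to 2 in IBA-Ala against IAA-Ala and to 1 in IBA-Ala against IPA-Ala. Leaving out 1 library at a time, the log2 difference of *UGT74E2* lay between 1.02 and 1.63 for IBA-Ala against IAA-Ala and between 0.93 and 1.56 for IBA-Ala against IPA-Ala.

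*UGT74D1* had similar levels in the control and after IAA-Ala and lower levels after the conjugates with the longer chains. The control replicates had 2145 and 2121 counts of *UGT74D1*, equal to 116.9 and 132.7 CPM. The IAA-Ala replicates had 2236 and 2306 counts, equal to 121 and 124 CPM, within the range of the controls. The IPA-Ala replicates had 1657 and 1579 counts, equal to 96.4 and 88.6 CPM. The IBA-Ala replicates had 1566 and 1797 counts, equal to 80.7 and 95.2 CPM. The 4 libraries of IPA-Ala and IBA-Ala were thus below the other 4, and the libraries of these 2 treatments overlapped. Such a separation was found for 3.53% of the 27948 genes.

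The means of *UGT74D1* were 124.8 ± 11.2 CPM in the control, 122 ± 1.96 with IAA-Ala, 92.5 ± 5.52 with IPA-Ala and 88.0 ± 10.3 with IBA-Ala (SD, n = 2). In each treatment 0 of the 3 genes was called against the control with edgeR. The share of all genes called was 0.0486% with IAA-Ala, 0.488% with IPA-Ala and 0.0037% with IBA-Ala. In each of the 3 treatments 1 of the 3 genes, *UGT74E2*, had an unadjusted p below 0.05. Such a p was reached by 13.6%, 8.6% and 14.9% of all genes in the same order. DESeq2 called 0 of the 3 genes with IAA-Ala (1.52% of all genes), 0 with IPA-Ala (1.6%) and 1 with IBA-Ala (3.1%). The log2 fold change of *UGT74D1* against the control was -0.04 after IAA-Ala (SE 0.25, 95% interval -0.59 to 0.51, adjusted p = 0.960). It was -0.44 after IPA-Ala (SE 0.25, 95% interval -0.99 to 0.12, adjusted p = 0.723). After IBA-Ala it was -0.51 (SE 0.23, 95% interval -1.04 to 0.03, adjusted p = 0.363). None of these differences passed the test.

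Against IAA-Ala, whose replicates were close together, the intervals of *UGT74D1* did not include 0 before adjustment. An unadjusted p below 0.05 was reached by 22.7% of all genes for IPA-Ala and by 27.2% for IBA-Ala. A larger absolute difference than that of *UGT74D1* was found for 44.3% and 43.4% of genes. The log2 difference of *UGT74D1* was -0.41 for IPA-Ala (SE 0.16, 95% interval -0.78 to -0.03, adjusted p = 0.188). It was -0.47 for IBA-Ala (SE 0.16, 95% interval -0.85 to -0.10, adjusted p = 0.112), which is 0.72-fold the level after IAA-Ala. For IPA-Ala and IBA-Ala together against IAA-Ala it was -0.44 (SE 0.16, 95% interval -0.80 to -0.08, adjusted p = 0.139). In this contrast 24.2% of genes had an unadjusted p below 0.05, and 0% were called. Between IBA-Ala and IPA-Ala the log2 difference was -0.08, with a 95% interval from -0.48 to 0.33 (adjusted p = 0.943).

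*DAO1* showed no order of the groups that exceeded the spread of the replicates. The control replicates had 245 and 129 counts of *DAO1*, equal to 13.4 (11.7 to 15.1) and 8.07 (6.74 to 9.59) CPM. The IAA-Ala replicates had 203 and 154 counts, equal to 11.0 and 8.27 CPM. The IPA-Ala replicates had 228 and 265 counts, equal to 13.3 and 14.9 CPM. The IBA-Ala replicates had 195 and 326 counts, equal to 10.05 (8.69 to 11.6) and 17.3 (15.5 to 19.3) CPM. The highest library and one of the lower ones were thus replicates of the same treatment, and the control replicates alone spanned from 8.07 to 13.4 CPM. Among pairs of groups, those of IPA-Ala and IAA-Ala did not overlap, and both IPA-Ala libraries were above both IAA-Ala libraries in 27.3% of all genes.

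The means of *DAO1* were 10.7 ± 3.73 CPM in the control, 9.63 ± 1.92 with IAA-Ala, 14.1 ± 1.13 with IPA-Ala and 13.7 ± 5.11 with IBA-Ala (SD, n = 2). Against the control the log2 fold change was -0.17 after IAA-Ala (SE 0.34, 95% interval -0.93 to 0.59, adjusted p = 0.869). It was 0.38 after IPA-Ala (SE 0.32, 95% interval -0.33 to 1.10, adjusted p = 0.865) and 0.35 after IBA-Ala (SE 0.37, 95% interval -0.51 to 1.20, adjusted p = 0.705). The intervals for IPA-Ala and IBA-Ala reach up to 2.14-fold and 2.29-fold the level of the control, so that differences of this size could not be resolved with 2 replicates. Between the conjugates, the log2 difference of *DAO1* was 0.54 for IPA-Ala against IAA-Ala (95% interval -0.01 to 1.09, adjusted p = 0.224). It was 0.51 for IBA-Ala against IAA-Ala (95% interval -0.23 to 1.24, adjusted p = 0.339) and -0.05 for IBA-Ala against IPA-Ala (95% interval -0.71 to 0.61, adjusted p = 0.980).

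**Figure D2:**
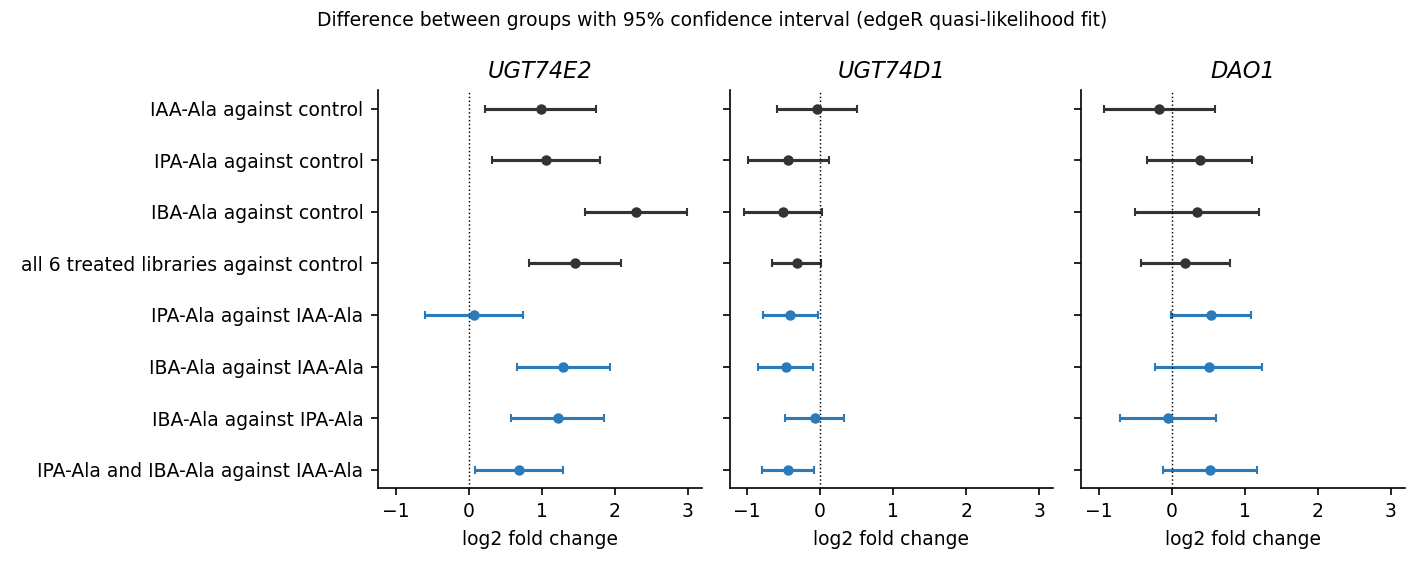
Log2 fold changes of the 3 genes (horizontal axis) with 95% intervals (bars) from edgeR's quasi-likelihood fits, for comparisons with the control (dark) and between conjugates (blue). The dotted line marks no difference. *UGT74E2* lay at 2.29 for IBA-Ala against the control, whereas all values of *UGT74D1* and *DAO1* lay between -0.51 and 0.54.

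Several of the small differences of *DAO1* and *UGT74D1* changed their sign with 1 library. For *DAO1* after IAA-Ala, the log2 fold change was 0.22 without the first control replicate and 0.02 without the second IAA-Ala replicate. For *DAO1* after IBA-Ala, it was -0.10 without the second IBA-Ala replicate and 0.76 without the first control replicate. For *UGT74D1* after IAA-Ala, it was 0.054 without the second control replicate. Without the second IBA-Ala replicate, the log2 difference of *DAO1* for IBA-Ala against IAA-Ala was 0.067, and it was 0.86 without the first. For *DAO1* after IPA-Ala, the log2 fold change was 0.073 without the second control replicate and 0.79 without the first. *UGT74D1* remained below the control in all fits with 1 library left out with IPA-Ala (-0.53 to -0.34) and with IBA-Ala (-0.63 to -0.39). *UGT74E2* remained above the control after all 3 conjugates, with values from 0.65 to 1.25 after IAA-Ala and from 0.71 to 1.35 after IPA-Ala. In these cases all treated libraries lay on the same side of both controls. The kept direction follows from this separation and adds nothing to it.

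**Figure D3:**
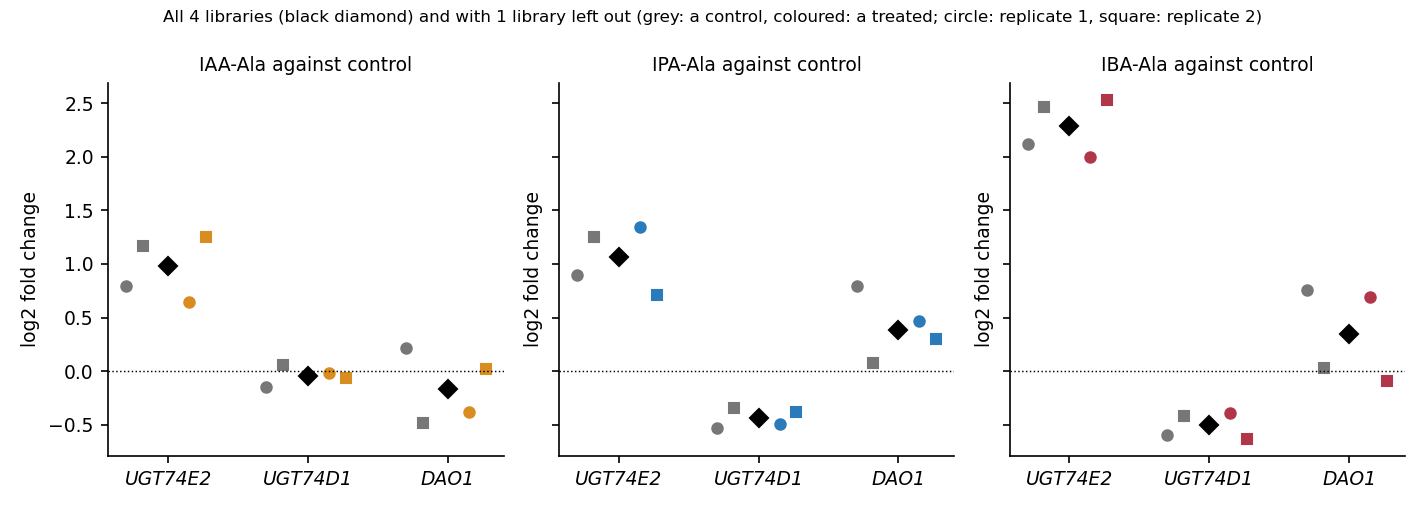
Log2 fold changes against the control (vertical axis) with all 4 libraries (black diamonds) and with 1 library left out (grey, a control; coloured, a treated library; circles, replicate 1; squares, replicate 2). *UGT74E2* stayed between 2.0 and 2.53 after IBA-Ala, while *DAO1* lay on both sides of the dotted line at 0 after IAA-Ala and IBA-Ala.

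A test of any difference among the 4 groups was fitted over all 8 libraries. The largest and smallest group of *UGT74E2* were 2.29 apart on the log2 scale (adjusted p = 0.0266, rank 149 of 27948 genes). This range was 0.50 for *UGT74D1* (adjusted p = 0.224) and 0.55 for *DAO1* (adjusted p = 0.540). Both lay below 0.70, the median range over all genes tested. With edgeR 0 of the 3 genes and 0.00716% of all genes were called, whereas 2 of the 3 genes and 21.2% of all genes had an unadjusted p below 0.05. *UGT74E2* and 1.55% of all genes had an adjusted p below 0.05. DESeq2 called 5.46% of all genes and, of the 3, *UGT74E2* alone (adjusted p = 1.4e-07).

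The replicates of these genes differed by more than counting error in some groups. Set against the error of counting alone, the difference between replicates of *UGT74E2* gave a chi-square (1 degree of freedom) of 3.4 in the control, 22.3 with IAA-Ala, 22.8 with IPA-Ala and 42.4 with IBA-Ala. The medians over all genes were 6.60, 4.11, 3.41 and 3.50 in the same groups. This measure grows with the count, and the treated replicates of *UGT74E2* differed 1.45-fold to 1.54-fold. For *DAO1* the value was 21.8 in the control and 36.8 after IBA-Ala, and 1.60 after IPA-Ala. For *UGT74D1* it was as low as 0.581 after IAA-Ala and 23.1 after IBA-Ala, where the replicates differed 1.18-fold.

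The ratio of 2 genes within a library does not depend on the scaling of the libraries. It compares libraries, and since the lengths of the transcripts were not used here, it does not compare the levels of the 2 genes. Per 100 counts of *UGT74D1* there were 5.13 and 5.75 counts of *UGT74E2* in the control replicates. The ratio was 13.6 and 8.67 after IAA-Ala and 11.6 and 19.6 after IPA-Ala. After IBA-Ala it was 48.9 and 28.6, above all other libraries. The replicates of IBA-Ala deviated in opposite directions in the 2 genes, so that they lay farther apart in the ratio than in *UGT74E2* alone.

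Per 100 counts of *UGT74D1* there were 11.4 and 6.08 counts of *DAO1* in the control and 9.08 and 6.68 after IAA-Ala. There were 13.8 and 16.8 with IPA-Ala and 12.5 and 18.1 with IBA-Ala. In this ratio, all 4 libraries of IPA-Ala and IBA-Ala lay above the other 4. *UGT74D1*, by which the counts are divided, was lower in the same 4 libraries, whereas *DAO1* itself overlapped between them and the other 4. Ratios were not tested, and the share of all genes with such a separation in their ratio to *UGT74D1* was not computed.

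**Figure D4:**
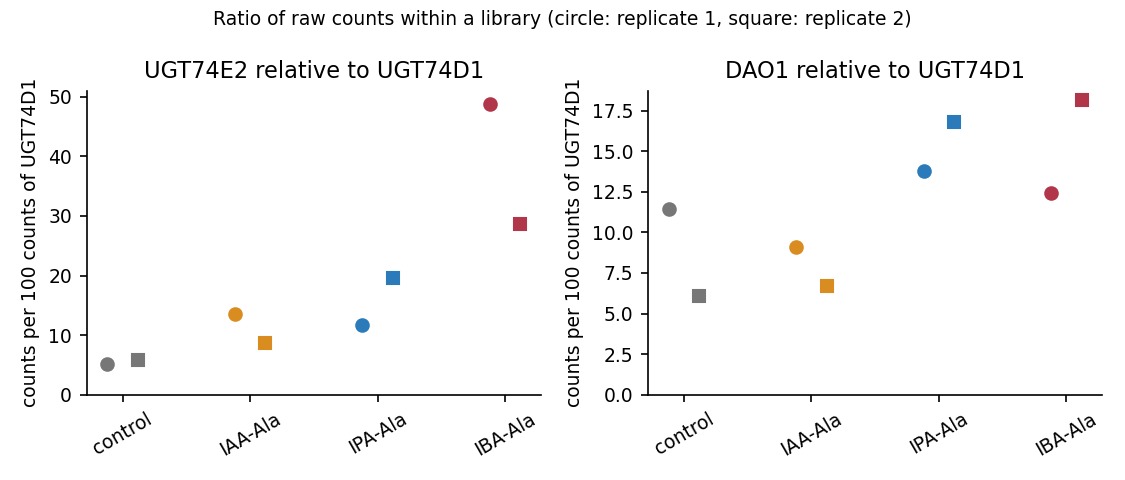
Counts of *UGT74E2* (left) and *DAO1* (right) per 100 counts of *UGT74D1* in the same library (vertical axes from 0), by treatment; circles are replicate 1 and squares replicate 2. The IBA-Ala libraries reached 48.9 and 28.6 for *UGT74E2*, and the 4 libraries of IPA-Ala and IBA-Ala lay between 12.5 and 18.1 for *DAO1*.

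The 3 genes belong to a larger set of genes that bind or release auxin. Other glucosyltransferases named in the study are *UGT74B1*, which in *A. thaliana* glucosylates precursors of glucosinolates, *UGT84B1*, which in *A. thaliana* forms glucose esters of IAA, and *UGT1*. *UGT84B1* (BraA09g054310.3C) had 0 counts in all 8 libraries, which allows up to 3 counts in each (the upper limit of a one-sided 95% interval). None of the other 2 was called in a comparison with the control by edgeR. The share of all genes called was 0.0486% with IAA-Ala, 0.488% with IPA-Ala and 0.0037% with IBA-Ala. In the same order, 13.6%, 8.6% and 14.9% of all genes had an unadjusted p below 0.05. At an unadjusted p below 0.05, neither differed after IAA-Ala, *UGT74B1* was lower after IPA-Ala (log2 fold change -0.85, SE 0.31, adjusted p = 0.406) and *UGT1* higher after IBA-Ala (1.35, SE 0.53, adjusted p = 0.283). The IAA-Ala replicates of *UGT1* differed 6.09-fold. The median log2 fold change of the 2 genes was 0.65 with IAA-Ala, -0.57 with IPA-Ala and 0.56 with IBA-Ala. The median over all genes lay between -0.02 and -0.01. With 2 genes the median is their midpoint, and they went in opposite directions after IAA-Ala and IBA-Ala. The log2 fold change of *UGT74B1* was -0.19 after IAA-Ala and -0.23 after IBA-Ala, and that of *UGT1* was 1.49 and 1.35.

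GH3 enzymes join auxins to amino acids and are encoded by genes that respond quickly to auxin in *A. thaliana*. Of 6 *GH3* genes tested, 2 were called higher after IAA-Ala, where 0.0486% of all genes were called. They were *YDK1* (*GH3.2*; log2 fold change 7.27, SE 0.41, adjusted p = 0.000114) and *GH3.3* (4.62, SE 0.37, adjusted p = 0.000938). The other 4 had log2 fold changes between 0.15 and 1.37. None of them reached an unadjusted p below 0.05, which 13.6% of all genes did. *GH3.3* had 205 and 102 counts in the control and 3223 and 4869 after IAA-Ala. *YDK1* had 9 and 17 counts in the control and 2490 and 1943 after IAA-Ala. The counts of the control and of IAA-Ala were thus far apart in both genes. Like *UGT74E2*, both are displayed in the study because they responded in these libraries, and their calls are not independent evidence. Without the second control replicate the adjusted p of *GH3.3* was 0.0183, and in one fit of all 8 libraries it was 0.0134.

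After IBA-Ala, *YDK1* and *GH3.3* lay just outside the threshold with log2 fold changes of 5.61 (adjusted p = 0.0101) and 3.99 (adjusted p = 0.0113). After IPA-Ala their log2 fold changes were 4.44 (adjusted p = 0.0340) and 2.57 (adjusted p = 0.0602). The IPA-Ala replicates differed 6.34-fold in *YDK1* (79 and 519 counts) and 3.73-fold in *GH3.3* (383 and 1482 counts), and without the second the log2 fold changes were 2.57 (adjusted p = 0.150) and 1.34 (adjusted p = 0.519). No *GH3* gene was called with edgeR after IPA-Ala (0.488% of all genes) or IBA-Ala (0.0037%), while 3 and 4 of the 6 were higher at an unadjusted p below 0.05, which 8.6% and 14.9% of all genes reached in either direction. DESeq2 called *GH3.3* after IPA-Ala (adjusted p = 2.9e-05), and after IBA-Ala both *YDK1* (1.8e-26) and *GH3.3* (4.4e-23). The median log2 fold change of the 6 genes was 0.94 with IAA-Ala, 0.76 with IPA-Ala and 1.14 with IBA-Ala. Of the 6 genes, *YDK1*, *GH3.3* and *GH3.1* had their highest mean after IAA-Ala, and *GH3.6*, *GH3.9* and *GH3.17* after IBA-Ala, as did *UGT74E2*. Not all of these means stood apart from the next. *GH3.17* had 3.96 ± 0.73 CPM with IBA-Ala and 3.82 ± 0.47 with IPA-Ala (SD, n = 2). *GH3.1*, with 3 to 45 counts per library, had 1.94 ± 0.70 CPM with IAA-Ala and 1.61 ± 0.56 with IBA-Ala. For IBA-Ala against IAA-Ala the log2 difference of *YDK1* was -1.66 (adjusted p = 0.0288) and that of *GH3.3* -0.63 (adjusted p = 0.216), beside 1.30 for *UGT74E2* (adjusted p = 0.0403). None of these passed the threshold.

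The genes of the return to free auxin were *ILL2*, an amidohydrolase that in *A. thaliana* releases auxins from their amino acid conjugates, and *IBR1* and *IBR3*, which in *A. thaliana* take part in the conversion of IBA to IAA in peroxisomes. With edgeR 0 of these 3 genes were called after any of the conjugates, beside 0.0486% of all genes with IAA-Ala, 0.488% with IPA-Ala and 0.0037% with IBA-Ala. An unadjusted p below 0.05 was reached by 0 of the 3, beside 13.6%, 8.6% and 14.9% of all genes. Their median log2 fold change was -0.35 with IAA-Ala, -0.30 with IPA-Ala and -0.12 with IBA-Ala. *ILL2* lay between -0.47 and -0.35 in the 3 comparisons. *IBR1* had a log2 fold change of -0.36 after IAA-Ala and 0.29 after IBA-Ala. It was the 1 gene of these 3 with an unadjusted p below 0.05 for IBA-Ala against IAA-Ala (log2 difference 0.64, SE 0.16, adjusted p = 0.0577). In that pair 27.2% of all genes had such a p.

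**Figure D5:**
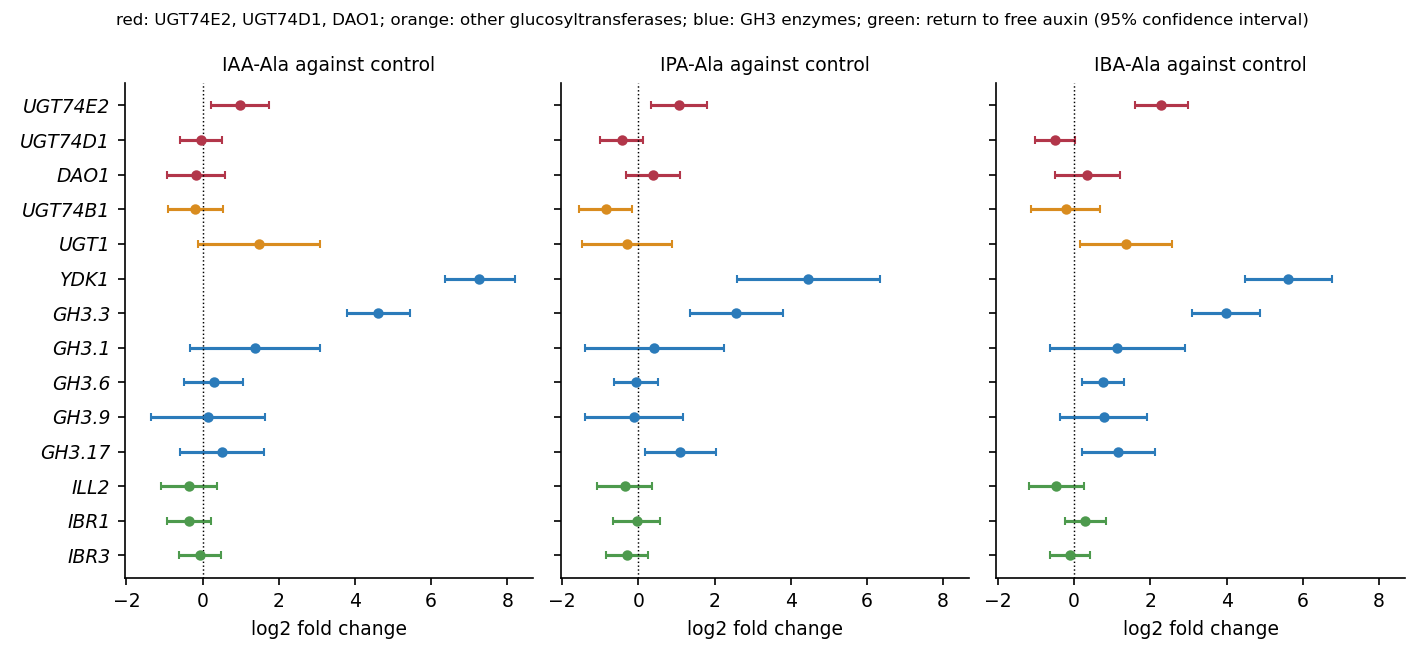
Log2 fold changes against the control (horizontal axes) with 95% intervals for the 3 genes (red), other glucosyltransferases (orange), *GH3* enzymes (blue) and genes of the return to free auxin (green), from edgeR's quasi-likelihood fits; the dotted line marks no difference. After IBA-Ala, *UGT74E2* (2.29) was above all genes shown other than *YDK1* (5.61) and *GH3.3* (3.99).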

How the data were processed

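Reads were trimmed by the authors by 9 bases at the start, aligned with STAR 2.7.1a to the Chiifu genome and counted per gene, with regard to strand, with HTSeq 1.99.2. The deposited values are these raw counts. Tables deposited as normalized hold identical counts for the genes whose sum over a table was 2 or more, and were only used for this check. All columns matched a library by name. Reads assigned to no gene stayed out of the library sizes, and made up between 15.9% and 19.3% of the uniquely aligned reads.

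Counts were analysed with edgeR 4.0.16 and DESeq2 1.42.0 in R 4.3.3, and figures were drawn with Python 3.11.15 and matplotlib 3.10.9. Genes were filtered with filterByExpr (minimum count 10, minimum total 15) and scaled by TMM. The quasi-likelihood test of edgeR 4 was fitted to the 4 libraries of 2 groups, or to all 8 libraries for contrasts of more groups. The prior count was 0.125 in fold changes and 2 in log2 CPM. The SE was taken as the ratio of the absolute log2 fold change, fitted without a prior count, to the root of the F statistic, and 95% intervals use the degrees of freedom of that test.

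The genes named are the 3 genes, the 12 genes of 3 lists of auxin conjugation and release, and the genes most like each of the 3 over all libraries, measured by the root mean square difference of log2 CPM centred on each gene's mean. Genes and lists were chosen with earlier results of these data known. The alternatives were DESeq2, RLE factors, other filters on low counts, one fit of all 8 libraries, a block for the replicate number, and each library left out in turn. Scaling by library size only and the edgeR 3 form of the test were added after seeing the data. In the reference table of genes (CAAS_Brap_v3.01), 0 of the identifiers were matched, so sequences and positions were not used here. Whether replicates came from separate batches of seedlings was not given in the sources used here beyond the word biological, and p-values measure the spread between these libraries. Metabolites were not analysed here.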

Additional observations from a re-analysis of the deposited data

How the results depend on the processing

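None of the 3 genes was called in the main fits, so no call could be lost under an alternative. Of 369 values of the 3 genes under alternatives, 349 kept their direction and stayed uncalled. Another 10 passed the threshold only under the alternative, and 10 changed sign. All values that newly passed were of *UGT74E2*. With DESeq2 its log2 fold change was 2.29 (adjusted p = 5.0e-08) for IBA-Ala against control, 1.29 (0.00086) for IBA-Ala against IAA-Ala, 1.45 (4.4e-05) for all treated libraries against control and 2.29 (1.4e-07) for any difference among the groups. With all 8 libraries in one fit, IBA-Ala against control gave 2.29 (0.00719). Without a filter on low counts, any difference gave 2.28 (0.00686).

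The sources used here do not say whether libraries with the same replicate number belong together. Deviations of same-numbered libraries correlated between -0.156 and 0.156 over 27948 genes, with 0.156 for control and IBA-Ala. With 2 libraries per group, these correlations cannot decide whether same-numbered libraries shared a batch. With the replicate number as a block, the log2 fold change of *UGT74E2* was 2.27 (5.2e-05) for IBA-Ala against control, 2.28 (0.00489) with all 8 libraries as well, and 1.30 (0.000873) for IBA-Ala against IAA-Ala. The block moved the number of genes called after IBA-Ala from 1 to 1049, and no call of *UGT74D1* or *DAO1*.

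With 1 library left out, *UGT74E2* ranged from 2.0 to 2.53 for IBA-Ala against control and for any difference, from 1.02 to 1.63 for IBA-Ala against IAA-Ala, from 1.26 to 1.64 for all treated libraries and from -0.28 to 0.39 for IPA-Ala against IAA-Ala. *DAO1* ranged from -0.49 to 0.22 for IAA-Ala against control, from -0.10 to 0.76 for IBA-Ala against control, from -0.50 to 0.30 for IBA-Ala against IPA-Ala and from -0.12 to 0.58 for all treated libraries. *UGT74D1* ranged from -0.15 to 0.054 for IAA-Ala against control and from -0.21 to 0.042 for IBA-Ala against IPA-Ala. A group with 1 library left is assumed to vary like the others.

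The number of genes called depended on the tool and on single libraries. Against control, edgeR called 13 genes with IAA-Ala, 131 with IPA-Ala and 1 with IBA-Ala, DESeq2 called 370, 416 and 807, and the edgeR 3 form 7, 97 and 0. With 1 library left out, edgeR called between 1 and 129, between 86 and 251, and between 0 and 587, the most without the second IAA-Ala, the first control and the second IBA-Ala replicate. The causes were not tested. Scaling by library size only moved the median log2 difference of all genes most in IBA-Ala against IAA-Ala, to 0.117 from 0.017, and changed no direction of the 3 genes. Outliers could not be tested in groups of 2 libraries.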

Other observations

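The genes whose pattern over the 8 libraries was most like that of each gene were sought among 27947 other genes, by the root mean square difference of centred log2 CPM, where 0 means the same pattern. The closest to *UGT74E2* was BraA02g008140.3C with a difference of 0.265, where the median over all genes was 0.918. Its levels were 12.04 and 13.4 CPM in the controls, 46.6 and 21.1 with IAA-Ala, 27.0 and 35.2 with IPA-Ala and 57.7 and 53.2 with IBA-Ala. Its IAA-Ala replicates were thus farther apart than those of *UGT74E2*. Among 32 other genes of auxin metabolism with a name, *EIR1*, an auxin efflux carrier in *A. thaliana*, was closest to *UGT74E2* (0.447), and ranked 191 among all genes. Like *UGT74E2*, *EIR1* is displayed in the study because it responded to IBA-Ala in these libraries, so their likeness is not independent evidence.

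For *UGT74D1* the closest gene was BraA09g051770.3C with a difference of 0.0433 and a median over all genes of 0.442. Its levels were 161.4 and 189 CPM in the controls and 167 and 165 with IAA-Ala. They were 129 and 122 with IPA-Ala and 116 and 139 with IBA-Ala. Its 4 libraries of IPA-Ala and IBA-Ala lay below the other 4. The gene was picked for its likeness to *UGT74D1* in these libraries, so this is not a separate observation. *ILL2* (0.193) was the closest of the 32 other genes of auxin metabolism with a name, but ranked 1518 among all genes. For *DAO1* the closest gene was BraA09g063470.3C (0.141, median over all genes 0.520), which had between 43 and 86 counts per library. *IBR5* (0.253) was the closest with a name and ranked 307 among all genes. These are descriptions over 8 libraries and say nothing of shared function.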
